A study of Mus musculus with 2 samples.

Results

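The genes described are 10 stress and growth arrest genes of the mouse: the Gadd45 family (Gadd45a, Gadd45b and Gadd45g), the sestrins Sesn1 and Sesn2, the cyclin-dependent kinase inhibitors Cdkn1a and Cdkn1b, the cyclin gene Ccnd1, the p53 regulator Mdm2 and the antiproliferative gene Btg1. They were taken by name, out of 12393 genes with a probe set of their own, as every probe set that the platform annotation assigns to a single member, 21 probe sets in all. The members were chosen by a rule that names the deposited signals of both arrays and their ratio, with those values known, so the values are a description and none is tested. Of the 10 genes, 9 were measured, meaning that the brightest probe set by mean signal reached 80 on at least 1 array; 5911 of all genes were.

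The data are liver expression profiles on 1-colour Affymetrix arrays, 1 array per diet. Per the labels and the design text, both arrays hold liver RNA of female C57BL/6J mice of 2 months of age, homozygous for a knockout of apolipoprotein E, a ligand that clears lipoprotein remnants from plasma. One array stands for chow supplemented with 10% (w/w) olive oil, the other for the same chow with 10% (w/w) of a maslinic acid-enriched oil; maslinic acid is a triterpene found in olives. Each diet was eaten for 4 weeks. The study kept 6 mice per diet; whether an array holds RNA of 1 mouse or a pool is not stated in the sources used here. With 1 array per diet there is no replicate, so the diets can be given no error, test or p-value, and each direction below is between the arrays as labelled, called the olive oil array and the maslinic acid array.

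Most products of these genes hold back cell division or growth under stress; cyclin D1 and MDM2 act the other way. Gadd45 proteins are small nuclear proteins that bind PCNA, the CDK1-cyclin B1 complex and the kinase MAP3K4, which acts upstream of the p38 and JNK kinases. Sestrins restrain the growth kinase complex mTORC1 when amino acids are short or cells are stressed. The proteins of Cdkn1a (p21) and Cdkn1b (p27) inhibit cyclin-dependent kinases, which cyclin D1 of Ccnd1 activates in G1, and MDM2 targets the p53 protein, a transcription factor that induces Cdkn1a, Mdm2 and the sestrins, for degradation. Most hepatocytes of an adult liver are out of the cell cycle, and several of these genes are known to be induced early after partial hepatectomy.

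Of the 9 measured genes, 6 had a lower signal on the maslinic acid array and 3 a higher one; of all measured genes 52.0% were lower and 47.8% higher. At least 1.5-fold lower were 4 genes, Gadd45g, Sesn2, Gadd45b and Cdkn1b, and 1 gene, Sesn1, was at least 1.5-fold higher. All 4 lower genes reached the minimum of 80 on the olive oil array alone, so they were counted as measured only through the array on which they were higher. Likewise Mdm2, 1 of the 3 genes with a higher signal, reached it on the maslinic acid array alone. Over all 5911 measured genes, 1.57% were at least 1.5-fold lower and 1.47% at least 1.5-fold higher; since the members were chosen with their values known, nothing is read from the members' larger share. At least 2-fold lower were Gadd45g and Sesn2, against 0.305% of all measured genes, and no member was 2-fold higher, where the share of all genes was also 0.305%. The median log2 ratio of the 9 genes was -0.32, and that of all measured genes -0.01. Signals are MAS5 values as deposited; each log2 ratio is log2(maslinic acid / olive oil), with signals under 40 set to 40.

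**Figure D1:**
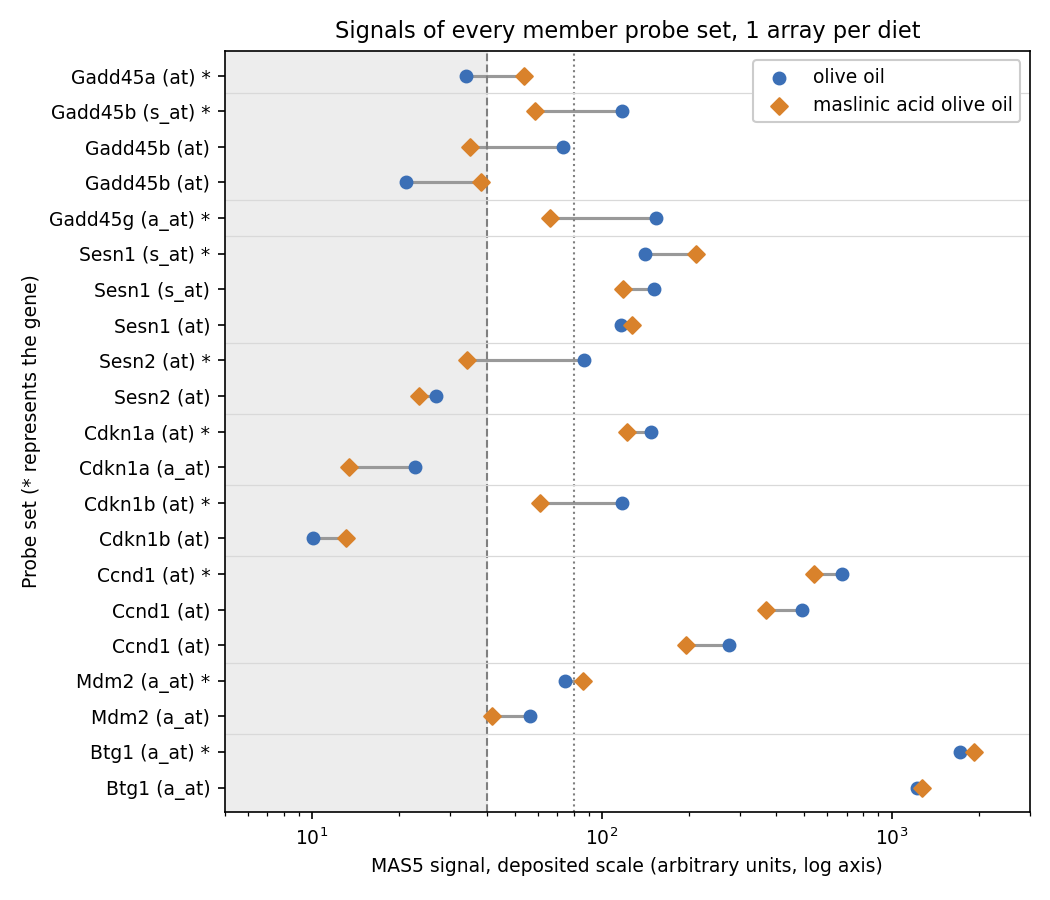
MAS5 signals of all 21 probe sets of the 10 genes on a log axis, with the olive oil array as circles and the maslinic acid array as diamonds; the dashed line and grey area mark the floor of 40 and the dotted line the minimum of 80. An asterisk marks the probe set that represents a gene: Gadd45g runs from 154.1 down to 66.3, while all 3 Ccnd1 probe sets shift left together and those of Sesn1 do not move the same way.

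Most of these genes were dim. The mean signal of the 2 arrays was under 200 for 7 of the 9 measured genes, and only Ccnd1 and Btg1 lay above that. Of the 21 probe sets, 14 were above the floor of 40 on both arrays, 3 lay under it on 1 array and 4 on both. Of the 14 probe sets that reached 80, 9 were lower on the maslinic acid array and 5 higher. Levels of different probe sets are not compared here, because probes differ in how strongly they bind.

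Of the stress-induced Gadd45 genes, Gadd45g and Gadd45b were lower on the maslinic acid array and Gadd45a was not measured. Gadd45g, which in other systems follows cytokines and differentiation cues as well as stress, was read by 1 probe set at 154.1 on the olive oil array against 66.3 on the maslinic acid array. Both values were above the floor, and the second was 2.32-fold lower, a log2 ratio of -1.22 and rank 5 from the lowest of 5911 genes. Gadd45b, which is induced early in liver regeneration and by TGF-beta, read 117.0 and 59.0 on its brightest probe set, 1.98-fold lower, a log2 ratio of -0.99. That places it just outside the 2-fold mark, at rank 19 from the lowest. This probe set is of the kind, ending in _s_at, whose probes can also read other transcripts.

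The remaining Gadd45b probe sets were dimmer. The first of them read 73.6 and 35.2, under the minimum of 80 on both arrays and under the floor on the maslinic acid array, so its difference is at least 1.84-fold lower. The other went from 21.1 to 38.3, under the floor on both arrays, and gives no ratio. Gadd45a, the member most closely tied to p53 and DNA damage, was not measured: its only probe set read 34.1 and 54.1, at least 1.35-fold higher on the maslinic acid array. Above the floor, then, Gadd45g and Gadd45b were lower on that array, and Gadd45a, dim on both, was not measured.

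The sequences before the starts of the 3 Gadd45 genes are shown because Gadd45b and Gadd45g were lower together. Gadd45a is shown as the remaining member of the family, and since it was not measured it gives no contrast in signal. Each is the 250 bases before the annotated start, 5′ to 3′ in the direction of transcription, from the RefSeq promoter table of build GRCm38.p6, at chr6:67037408-67037657 on the minus strand for Gadd45a, chr10:80929841-80930090 on the plus strand for Gadd45b and chr13:51846425-51846674 on the plus strand for Gadd45g. Capitals mark matches, on either strand, to the TATA box TATAAA, the CCAAT box CCAAT, the GC box GGGCGG, the E-box CACGTG, the C/EBP-ATF element TTGCATCA, the cAMP response element TGACGTCA, the FoxO site GTAAACA and the p53 decamer. The C/EBP-ATF element is the composite site at which ATF4 binds with a C/EBP partner.
Gadd45a: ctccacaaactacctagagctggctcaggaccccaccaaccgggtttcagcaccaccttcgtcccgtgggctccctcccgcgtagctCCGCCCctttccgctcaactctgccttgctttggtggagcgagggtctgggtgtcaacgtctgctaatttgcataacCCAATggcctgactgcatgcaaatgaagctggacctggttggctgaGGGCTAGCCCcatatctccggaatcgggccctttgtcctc
Gadd45b: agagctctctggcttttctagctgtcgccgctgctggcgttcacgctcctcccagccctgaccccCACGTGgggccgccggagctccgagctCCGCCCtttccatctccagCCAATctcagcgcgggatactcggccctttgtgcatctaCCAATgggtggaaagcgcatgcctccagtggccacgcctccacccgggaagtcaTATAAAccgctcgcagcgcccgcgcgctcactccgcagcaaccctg
Gadd45g: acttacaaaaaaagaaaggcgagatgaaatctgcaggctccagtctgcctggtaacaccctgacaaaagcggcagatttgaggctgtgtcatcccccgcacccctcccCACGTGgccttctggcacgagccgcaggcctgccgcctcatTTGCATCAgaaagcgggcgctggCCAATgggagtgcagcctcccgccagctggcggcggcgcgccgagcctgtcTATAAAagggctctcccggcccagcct

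The Gadd45b and Gadd45g windows both hold a TATA box, an E-box and at least 1 CCAAT box. Over 32851 promoters of the table, 12.4% hold a TATA box in the same window, 6.02% the E-box and 33.8% a CCAAT box. The TATA box began 46 bases before the start in Gadd45b and 27 in Gadd45g, and the E-box 185 and 142 bases before it. Among the 9 members with a window in the table, Gadd45g alone holds the C/EBP-ATF element, 101 to 94 bases before the start, found in 0.791% of promoters. The TATA box is also in the window of Btg1. Neither the TATA box nor the E-box is in the window of Sesn2 or that of Cdkn1b, which were lower too. Gadd45a has neither TATA box nor E-box in this window, but a CCAAT box, a GC box and a p53 decamer, the last of which 7.13% of promoters hold. These matches describe the letters and do not show that a factor bound there.

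The 2 sestrins differed in direction on the probe sets that represent them. Sesn2, whose protein senses leucine and is induced by p53 and ATF4, read 86.9 on the olive oil array and 34.3 on the maslinic acid array. The second value is under the floor, so the gene was at least 2.17-fold lower, with a bound of -1.12 on the log2 scale and rank 12 from the lowest. Its other probe set read 26.7 and 23.4, under the floor on both arrays. Sesn2 therefore just passed the minimum of 80 on 1 array and rests on 1 usable probe set.

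Sesn1, a p53 target whose product also restrains mTORC1, had 3 measured probe sets that went different ways. The brightest read 141.0 and 212.0, a log2 ratio of 0.59 and 1.504-fold higher, just past the 1.5-fold mark. The next read 151.4 and 118.1, a log2 ratio of -0.36, and the dimmest 116.7 and 127.0, a log2 ratio of 0.12. The brightest and the next both end in _s_at. The range of 0.95 between the probe sets exceeds the log2 ratio itself, and the mean of the 3 was 0.12, so these probe sets give Sesn1 no common direction. The 1.5-fold call was also lost when the arrays were scaled to equal medians or the loess trend on signal was removed.

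The Sesn2 window is shown as that of the sestrin with the lower signal. It lies at chr4:132510457-132510706 on the minus strand in GRCm38.p6, with capitals as above: CCAAT boxes on the opposite strand begin 157 and 93 bases before the start and a GC box 64 bases before it.
Sesn2: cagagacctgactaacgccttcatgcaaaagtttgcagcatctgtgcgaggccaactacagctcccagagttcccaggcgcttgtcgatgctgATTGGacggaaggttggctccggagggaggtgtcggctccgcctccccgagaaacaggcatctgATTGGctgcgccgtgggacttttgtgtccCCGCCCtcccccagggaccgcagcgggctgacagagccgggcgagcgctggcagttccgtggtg

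The kinase inhibitor genes were both lower, to unequal extents. Cdkn1b, which encodes p27 and is induced by FoxO factors in several cell types, read 117.1 and 61.0, 1.92-fold lower, a log2 ratio of -0.94 and rank 23 from the lowest. Its other probe set, at 10.1 and 13.1, was under the floor on both arrays. Cdkn1a, which encodes p21, read 148.0 and 122.5, a log2 ratio of -0.27, with 8.78% of measured genes lower still. Its other probe set read 22.7 and 13.4, also under the floor. Cdkn1a and Cdkn1b thus each rest on 1 probe set, and Cdkn1a lay well within 1.5-fold.

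The windows of both inhibitor genes are shown to set the gene that differed more beside the classic p53 target. Cdkn1b lies at chr6:134920151-134920400 on the plus strand and the upstream start of Cdkn1a at chr17:29090729-29090978 on the plus strand, both in GRCm38.p6. Cdkn1b holds CCAAT boxes and a GC box, and no FoxO site or p53 decamer in these letters. The Cdkn1a window holds p53 decamers that begin 73 and 51 bases before this start, and the window of the downstream Cdkn1a start holds GC boxes alone.
Cdkn1b: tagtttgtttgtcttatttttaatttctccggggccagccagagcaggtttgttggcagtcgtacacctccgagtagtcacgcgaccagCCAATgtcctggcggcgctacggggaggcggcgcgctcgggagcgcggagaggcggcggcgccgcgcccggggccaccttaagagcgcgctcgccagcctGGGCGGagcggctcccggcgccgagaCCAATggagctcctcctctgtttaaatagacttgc
Cdkn1a: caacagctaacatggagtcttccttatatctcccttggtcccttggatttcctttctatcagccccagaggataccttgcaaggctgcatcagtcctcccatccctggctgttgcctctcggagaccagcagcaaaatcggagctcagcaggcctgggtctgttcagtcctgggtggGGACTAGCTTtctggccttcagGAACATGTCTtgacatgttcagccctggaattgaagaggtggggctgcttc

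Ccnd1 was lower on every probe set. The gene encodes cyclin D1, which drives G1 progression and is a usual marker of hepatocytes entering the cell cycle. The 3 measured probe sets read 675.1 and 540.5, 492.2 and 369.0, and 275.4 and 195.8 on the olive oil and maslinic acid arrays, in that order. All were lower on the latter, with log2 ratios of -0.32, -0.42 and -0.49, between 1.25-fold and 1.41-fold. The range of 0.17 between them is smaller than each ratio, but none reached 1.5-fold, and 6.38% of measured genes were lower than Ccnd1.

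Mdm2 and Btg1 differed little. Mdm2 encodes the ubiquitin ligase of p53 and is itself a p53 target. The brightest probe set of Mdm2 read 74.5 and 85.9, a log2 ratio of 0.21. Mdm2 was thus counted as measured only through the array on which it was higher. Its other probe set read 56.6 and 41.7, a log2 ratio of -0.44, on signals that did not reach 80, so the 2 probe sets disagree in sign. Btg1, whose protein binds the CCR4-NOT deadenylase and slows proliferation, was read by bright probe sets at 1726.3 and 1920.9 and at 1220.4 and 1276.4. Their log2 ratios were 0.15 and 0.06, both slightly higher on the maslinic acid array.

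**Figure D2:**
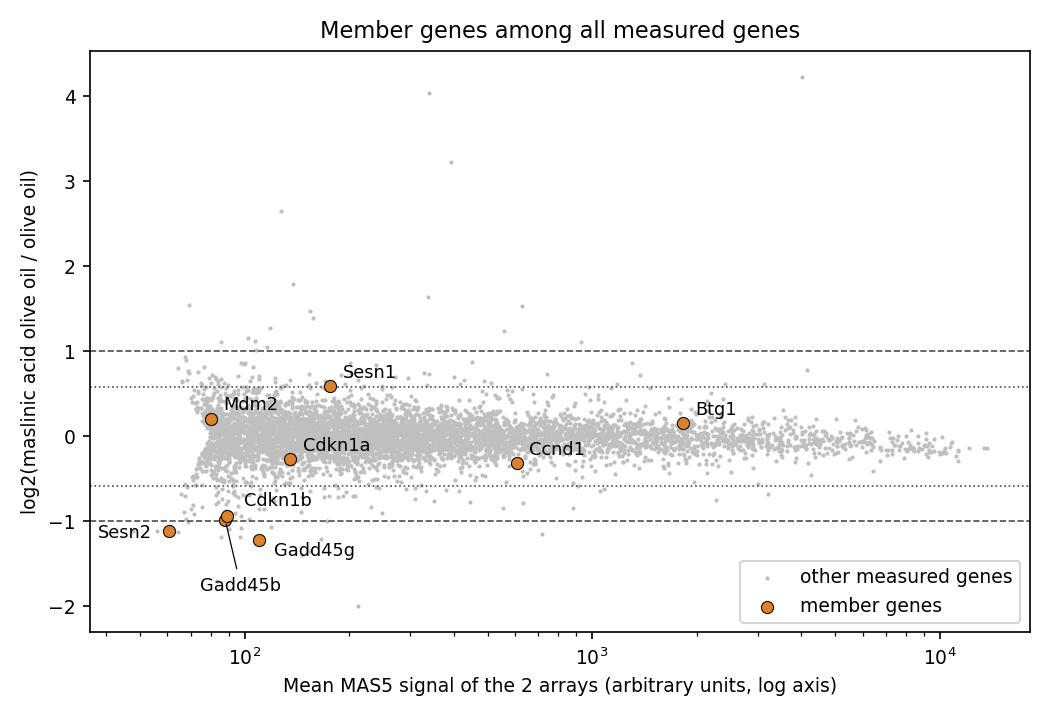
Log2(maslinic acid / olive oil) against the mean signal of both arrays on a log axis, for 5911 measured genes (grey) and the 9 measured member genes (orange); dotted and dashed lines mark 1.5-fold and 2-fold. Gadd45g, Sesn2, Gadd45b and Cdkn1b lie at the lower left, between -1.22 and -0.94, where signals are low and the cloud is widest. The bright Btg1 and Ccnd1 lie at 0.15 and -0.32.

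The spread of log2 ratios over genes widened at low signal, where most of these genes lie. Among the 698 genes with a mean signal under 100, which include Gadd45b, Sesn2, Cdkn1b and Mdm2, the SD of the log2 ratios over genes was 0.36, and 6.02% were at least 1.5-fold lower and 1.43% at least 2-fold lower. Among the 1732 genes with a mean signal of 100 to 200, which include Gadd45g, Sesn1 and Cdkn1a, the SD was 0.27, with 1.56% at least 1.5-fold and 0.346% at least 2-fold lower. Above 500, the range of Ccnd1 and Btg1, the SD was 0.20 and 0.518% were at least 1.5-fold lower. The SD between measured probe sets of 1 gene was 0.33 under 100, 0.19 over 500 and 0.23 over all. These probe sets share the hybridisation, so that SD holds no variation between animals. With a floor of 80 in place of 40, Gadd45g alone of the members stayed at least 1.5-fold lower, at -0.95, and Gadd45b and Cdkn1b lay at -0.55 and Sesn2 at -0.12.

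**Figure D3:**
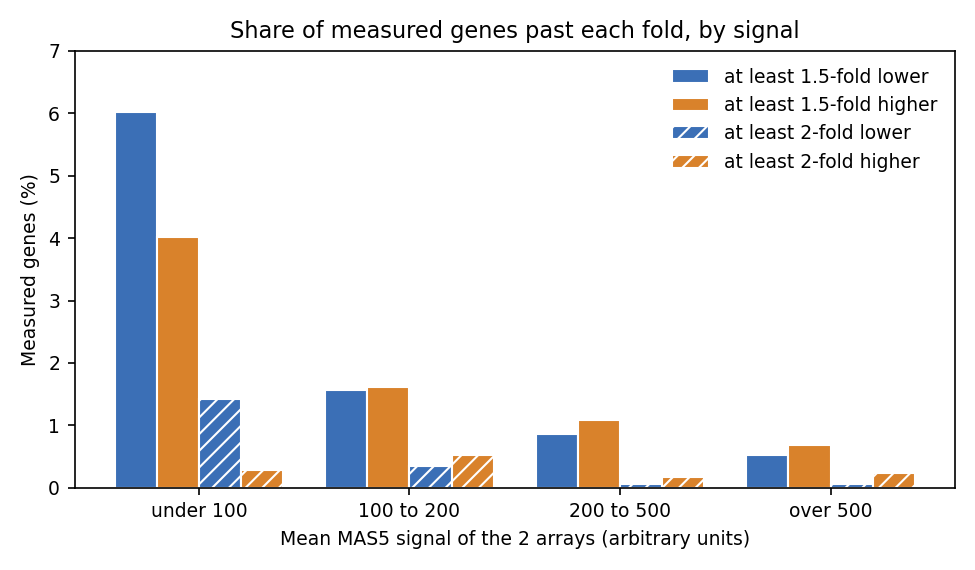
Share of measured genes, in percent, at least 1.5-fold (plain bars) and at least 2-fold (hatched bars) lower or higher on the maslinic acid array, in bands of the mean signal of both arrays. Under 100, 6.02% of genes are at least 1.5-fold lower and 4.01% higher, against 0.518% and 0.69% over 500.

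Genes known to act with the members were taken from lists by role. Of the other p53 targets and regulators, 10 of 25 on the array were measured, 6 higher and 4 lower, none by 1.5-fold, with a median log2 ratio of 0.05. The survival gene Bcl2l1 had a log2 ratio of 0.57 and the DNA repair gene Xpc of -0.18. Trp53inp1, a stress-induced partner of p53, read 1357.3 and 1097.2, a log2 ratio of -0.31, while its other probe set gave -1.19. Ccng1, a cyclin gene induced by p53, had a ratio of 0.15, although its 3 probe sets ran from -0.32 to 0.15. Partners of the Gadd45 proteins and the stress kinases gave a median of 0.01 over 9 of 15 genes, 5 higher and 4 lower, with the JNK kinase gene Map2k4 at 0.33, Mapk14, which encodes p38 alpha, at 0.17, Mapk8, which encodes JNK1, at -0.14 (0.13 on its other probe set) and Mapkapk2 at -0.12.

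The list of sestrin, mTORC1 and AMPK genes, which also holds Sesn3, Keap1 and Nfe2l2, had a median log2 ratio of -0.03. Of its 24 genes 20 were measured, 7 higher and 13 lower, none by 1.5-fold. The Rag GTPase gene Rraga, which recruits mTORC1 to the lysosome, read 242.9 and 171.4, a log2 ratio of -0.50, and the autophagy kinase gene Ulk1 read 300.9 and 215.8, a ratio of -0.48. Tsc2 lay at -0.24. Deptor, an mTOR inhibitor, lay at 0.25, but its 3 probe sets ran from -0.23 to 1.18. The third sestrin, Sesn3, named after its values were seen, read 230.0 and 253.0, a log2 ratio of 0.14.

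Genes of the cell cycle machinery were few above the minimum. Of the other kinase inhibitors, G1 cyclins and their partners, 9 of 22 were measured, 2 higher and 7 lower, none by 1.5-fold, with a median of -0.04. Rb1, the retinoblastoma gene, lay at 0.45, the cyclin gene Ccnd3 at -0.34, Cks1b at -0.26 and Cdkn2c at -0.22. Only 4 of 23 replication and mitosis genes were measured, with a median of -0.19: Mcm7 at -0.31 (up to 0.08 on its other probe sets), Rrm2 at -0.30, Tk1 at -0.07 and Pcna at 0.05. Rrm2 read 93.6 and 75.8, so it was counted as measured only through the array on which it was higher. In the BTG/TOB family and the CCR4-NOT complex, the partners of Btg1, the median was -0.02 over 10 of 11 genes, 5 higher and 5 lower, with Cnot6l at -0.20, Btg2 at 0.14, Tob1 at -0.14 and Cnot4 at -0.10.

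Single genes of the ATF4, FoxO and glucocorticoid lists lay further from 0, on their brightest probe sets, than any gene of the lists above. The medians of these lists did not, at -0.19, -0.08 and -0.10, against -0.19 for replication and mitosis genes. Whether these regulators acted on the members was not tested. Of the ATF4 and integrated stress response genes, 10 of 21 were measured, 8 lower and 2 higher, with a median log2 ratio of -0.19. In that list 1 gene was at least 1.5-fold lower, where the share of all measured genes was 1.57%. This was the hormone gene Fgf21, which read 90.4 and 49.8, a log2 ratio of -0.86. Cebpb followed at -0.33, Atf5 at -0.29 and Ppp1r15a at -0.28. Of the FoxO factors and targets, 13 of 16 were measured, 7 lower and 6 higher, with a median of -0.08, and 2 were at least 1.5-fold lower. These were the apoptosis gene Bcl2l11, at 142.0 and 78.4 a log2 ratio of -0.86 (the other probe set gave -0.43), and Igfbp1, which encodes a secreted IGF-binding protein, at 3952.9 and 2461.1 a ratio of -0.68. G6pc, the gluconeogenic phosphatase gene, lay at -0.56 and Klf15 at -0.47. Fgf21, Ppp1r15a and Bcl2l11 reached the minimum of 80 on the olive oil array alone. These genes were thus counted as measured only through the array on which they were higher.

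Glucocorticoid-responsive genes went both ways, with 14 of 15 measured, 6 higher and 8 lower and a median of -0.10. The metallothionein gene Mt2 lay at 1.11, Zbtb16 at 0.76 and the acute phase gene Lcn2 at 0.66, each at least 1.5-fold higher. Zbtb16 read 54.5 and 92.3, so it was counted as measured only through the array on which it was higher. The phosphatase gene Dusp1 read 1094.1 and 727.7, a log2 ratio of -0.59 and 1.504-fold lower. Among all measured genes, 1.47% lay past the 1.5-fold mark upward and 1.57% downward. The lists were chosen with earlier results known, so nothing is read from this list's larger share. The lists share some genes, among them Btg2, Pcna, Sesn3, Ccng2 and Sqstm1.

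**Figure D4:**
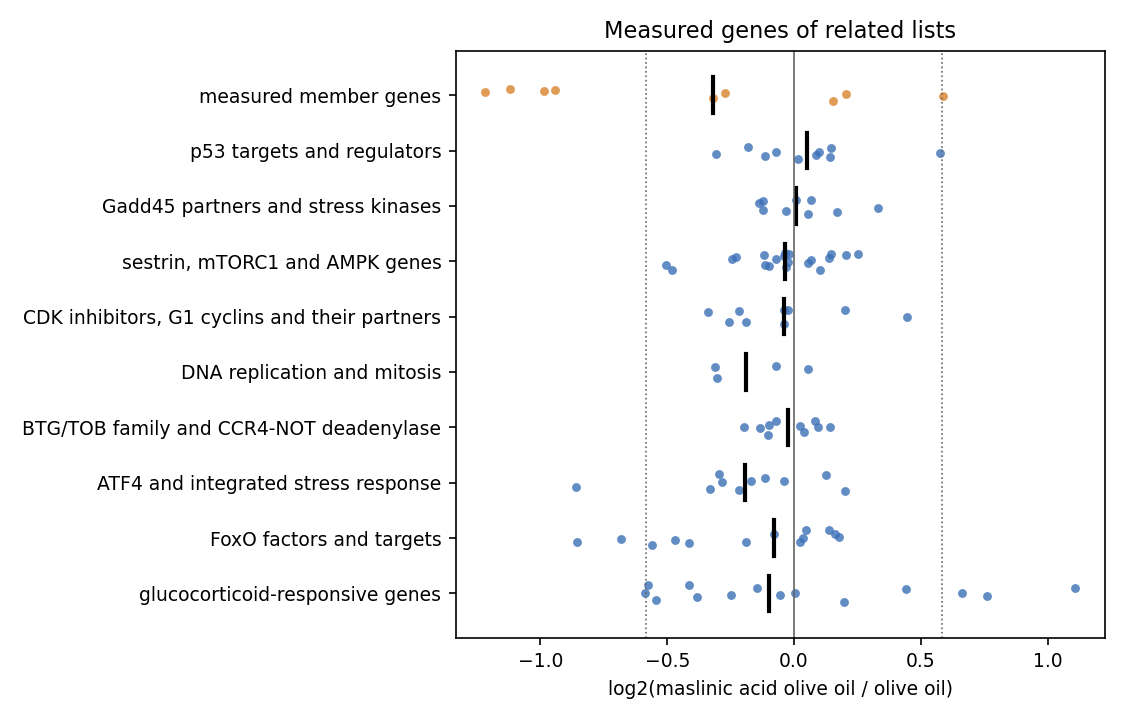
Log2 ratios of the measured genes of each related list (blue points) and of the 9 measured member genes (orange points), with the median of each list as a black bar; dotted lines mark 1.5-fold and points are spread vertically for visibility. Each point is the brightest probe set of its gene. The list medians lie between -0.19 and 0.05, and the 4 lowest member genes lie to the left of every listed gene. These 4 were counted as measured only through the olive oil array, on which they were higher. The members were also chosen with their values known, so nothing is read from that position. The other probe set of the listed gene Trp53inp1, not drawn, gave -1.19.

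Several facts of the arrays stand beside these values. Apoe itself read 407.7 on the olive oil array and 7630.0 on the maslinic acid array, an 18.7-fold difference between arrays that carry the same knockout label. Xist was bright on both arrays and probe sets for Y-linked Eif2s3y, Kdm5d and Uty read at most 9.2, as the female label has it. The 18S ribosomal RNA control near the 5' end read 3553.1 and 197.7, while the other 18S controls differed by 1.41-fold and 1.23-fold. The 3' to 5' ratio of the actin control was 2.31 and 2.77, and that of the Gapdh control 0.915 and 0.895. Markers of cell types are counted by the brightest probe set of each gene. Of the hepatocyte markers 10 of 10 were lower on the maslinic acid array, with summed signals of 93727 and 82329. Cyp2e1 (-0.29) and Ttr (-0.23) led them, while the 3 probe sets of Hnf4a ran from -0.22 to 0.64. These markers all have a mean signal over 500, where the median log2 ratio of measured genes was -0.02. Whether other genes as bright as these markers were also lower was not tested. Endothelial markers were lower in 7 of 7, with sums of 2806 and 2552, led by Kdr (-0.49) and Cdh5 (-0.32). Another probe set of the endothelial marker Eng lay at 0.007. Macrophage markers were higher in 6 of 11 and lower in 5, with sums of 12098 and 12057 and with Marco at -2.00 and C1qb at 0.43. Stellate markers were higher in 7 of 8, with sums of 4826 and 4893, led by Acta2 (0.35) and Lum (0.34). Of 10 lymphocyte markers on the array 2 were measured, Ighm at 1.54 (down to 0.49 on its other probe sets) and Ptprc at -0.14. Of the erythroid markers only Alas2 was measured, at 0.68, and no cholangiocyte marker was. In a whole liver, fewer cells of a type and less RNA per cell cannot be told apart. With 1 array per diet, neither can be told from a difference between the arrays themselves. The part of these facts in the members' differences was not tested.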

How the data were processed

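Liver RNA of both diets was hybridised to 1 array each, from biotin-labelled cRNA, per the labels' protocols. The deposited values are intensities, 1 linear MAS5 signal per probe set, made by the authors per the submitters' processing notes; version, settings and genome build are not stated in the sources used here. The 2% trimmed mean of the deposited intensities was 200.1 on each array, so they were used unscaled. No detection call or scanner file was used; 48.4% and 48.2% of 22690 probe sets lay under 40.

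Signals under 40 were set to 40 before log2. A gene was represented by the brightest (by mean signal) of the probe sets naming it alone, without the 64 control probe sets, and called measured at 80 or more on either array. In the platform annotation 20393 probe sets name 1 gene, 691 several and 1606 none; 20351 of 20380 non-control probe sets matched a gene of GRCm38.p6 by Entrez number.

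The members and gene lists were chosen with earlier results of these data known. Named genes are all members, up to 4 measured genes per list and 2 per marker list that lay farthest from 0, and label checks; Sesn3 was added after its values were seen. Promoter sequences are from RefSeq and matched 9 of 10 members by symbol. The steps, run in Python 3.11.15 with pandas 2.3.3, were tested on simulated data. Only genes with a mean signal over 200 were altered there, so that test does not bear on the calls of dim genes. Precision is limited by the number of arrays.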

Additional observations from a re-analysis of the deposited data

How the results depend on the processing

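The log2 ratios, counts and median of the members and the medians of the related lists were recomputed under 11 alternatives; where a member was not measured under one, it has no value there. Of 91 log2 ratios of members 85 moved by less than the SD of 0.23 between probe sets of a gene. No difference of at least 1.5-fold turned its sign, and all 99 medians of the related lists moved by less than that SD. Many member ratios could not move, so the count of 85 overstates stability. A changed minimum leaves the ratio of a measured gene as it was, and a lower floor alters only signals under 40. Averaging probe sets cannot move a gene with 1 measured probe set. With a floor of 80, the minimum itself, the log2 ratio was -0.55 for Gadd45b, -0.95 for Gadd45g, -0.12 for Sesn2 and -0.55 for Cdkn1b, leaving 1 member at least 1.5-fold lower and 0 at least 2-fold lower. With no floor the Sesn2 ratio was -1.34. With the loess trend removed Gadd45b lay at -1.01, and 3 members were at least 2-fold lower. With a minimum of 160 only Sesn1, Ccnd1 and Btg1 were measured, 0 members were 1.5-fold or 2-fold lower, and the members' median was 0.15. With the minimum of 80 applied to the mean of both arrays Sesn2 was not measured, and 1 member was at least 2-fold lower. For Sesn1 the log2 ratio was 0.12 with the mean of all measured probe sets and also with the _x_at and _s_at probe sets left out, and 0 members were then 1.5-fold higher; that count was 0 too with equal medians and with the loess trend removed. Without the _x_at and _s_at probe sets Gadd45b was not measured. The share of all genes at least 1.5-fold lower was 0.998% with a floor of 80 and 0.959% with a minimum of 160. The lower calls of Gadd45b, Sesn2 and Cdkn1b thus rest on signals near the floor. Gadd45g kept its 1.5-fold call with a floor of 80 but lost its 2-fold call, and it was not measured with a minimum of 160. With 1 array per diet none can be left out. No paired analysis was possible because the diets have a single array each.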
